A study of Homo sapiens with 8 samples.

Results

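ATF4 and the genes of the integrated stress response were examined here as a module of 38 genes in 8 RNA-seq libraries of human colorectal cancer cells. The members are genes known as direct or indirect targets of ATF4 or as its partners, in amino acid synthesis, amino acid transport and stress signalling, and they were picked by gene name. All 38 were found among 60605 gene identifiers in the tables, of which 19942 belonged to protein-coding genes. The choice was made with results of these libraries known, and it named CHAC1 and STC2 for their opposite changes in the cell lines. Those 2 genes are therefore described with no test, and the counts below are over the other 36 members.

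The integrated stress response starts when 1 of several kinases phosphorylates the translation factor eIF2 under amino acid shortage, misfolded protein in the endoplasmic reticulum, haem shortage or viral RNA. General translation then slows, while the mRNA of the transcription factor ATF4 is translated more efficiently, so that the protein can increase without a change of its mRNA, which is the only product measured here. ATF4 pairs with C/EBP family proteins and switches on genes for amino acid synthesis and uptake, and also its partners and its brakes, among them DDIT3 (CHOP), TRIB3 and PPP1R15A.

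The libraries came from HCT116, an established colorectal carcinoma line, and from UF1hypo, a clone derived from it in which 1 UHRF1 allele was disrupted by removal of an exon with CRISPR. UHRF1 recruits the maintenance DNA methyltransferase DNMT1 to newly replicated DNA. Each line carried a lentiviral short hairpin, either the control hairpin shScr or shUHRF1 against UHRF1, which gave 4 groups of 2 libraries: HCT116 shScr, HCT116 shUHRF1, UF1hypo shScr and UF1hypo shUHRF1. UF1hypo is a single clone, so an effect of the lost allele and any other property of that clone cannot be told apart, and all 4 groups went through viral transduction and drug selection. The day of harvest is not given for these libraries in the sources used here. Nothing in the sources states that the replicates were separate cultures, so the p-values measure the spread between these libraries only, which may be technical.

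The tables gave expression as TPM, a level scaled for transcript length and for the total of the library, and the depth, taken from the ratio of coverage to FPKM, was between 5.42 and 7.84 gigabases aligned per library. The targeted gene UHRF1 (chromosome 19, 4903080 to 4962154, GRCh38) went from 87.5 and 98.4 TPM under shScr to 31.7 and 32.7 under shUHRF1 in HCT116 and from 47.3 and 50.6 to 34.1 and 21.1 in UF1hypo, so every knockdown library lay below the control libraries of its line. Of 8 colon epithelium markers, EPCAM, CDH1, KRT8, KRT18 and CDX2 were above 1 TPM in at least 1 library, and CDX1, VIL1 and LGALS4 were not. The summed TPM of the 8 was 3038 to 3039 in HCT116 shScr, 4012 to 4155 under shUHRF1, 6206 to 6245 for the UF1hypo controls and 6906 to 8724 for the UF1hypo knockdown, with KRT8 and KRT18 called higher in the clone under shScr (1.16 ± 0.17 and 1.14 ± 0.12 on the log2 scale) and CDH1 called for the difference of knockdown effects (1.14 ± 0.21). Under shUHRF1 CDH1 and KRT18 were called higher in the clone (1.52 ± 0.15 and 1.05 ± 0.12). Of 6 leukocyte markers only CD68 passed 1 TPM. Their summed TPM was 13.2 to 14.4 in HCT116 shScr, 7.10 to 7.83 under shUHRF1, 40.6 to 42.8 for the UF1hypo controls and 78.6 to 109 for the UF1hypo knockdown. CD68 was called higher in the clone under shScr (1.61 ± 0.20) and shUHRF1 (3.57 ± 0.20). It was also called on knockdown in UF1hypo (1.11 ± 0.20) and for the difference of knockdown effects (1.95 ± 0.28). On knockdown in HCT116 CD68 gave -0.84 ± 0.20 and was not called. The part of either list in the results was not tested. Of 5 fibroblast markers only COL1A1 passed 1 TPM, at a summed 21.2 to 66.2, and of 3 endothelial markers none. COL1A1 was called higher in the clone under shUHRF1, at 1.01 ± 0.27. The UF1hypo shUHRF1 libraries stood apart from the rest. Their replicates correlated at r = 0.956 across genes against 0.991 to 0.992 in the other groups, and the difference between them followed transcript GC content across genes (Spearman rho 0.814, against -0.508 to -0.042 in the other groups). Its part in the values below was not tested beyond the results given without each library and with GC content removed.

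Some members carry the letters of a known ATF4 element near their start, and the matches in 3 of them are shown because the genes recur below. The C/EBP-ATF response element has the core TGATGNAA, where N is any base. It was searched on both strands of the 300 bases around the RefSeq start site (250 before, 50 after; RefSeq, GRCh38.p14), which the reference held for 30 of the 38 members. PYCR1, EIF4EBP1, SLC7A11, PSPH, SHMT2, GPT2, ALDH1L2 and NUPR1 had no entry there. Capitals mark the match, written in the direction of the gene.
CHAC1: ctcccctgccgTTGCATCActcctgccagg
ASNS: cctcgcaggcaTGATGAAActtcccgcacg
ATF3: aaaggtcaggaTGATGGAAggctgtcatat

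The CHAC1 stretch is chr15:40953251-40953280 on the plus strand, where the match reads on the opposite strand and begins 209 bases before the RefSeq start. The ASNS stretch is chr7:97872458-97872487 on the minus strand, with the match beginning 68 bases before the start. The ATF3 stretch is chr1:212565205-212565234 on the plus strand, with the match beginning 191 bases before the start. In the GENCODE annotation, which has earlier start sites for some transcripts, the CHAC1 and ASNS matches lie in an exon outside the coding sequence and the ATF3 match lies outside the gene. MTHFD1L, SLC3A2 and SLC7A1 also held the core, so 6 of 30 member promoters (20.0%) had it, against 401 of 15843 protein-coding promoters (2.53%). The members were picked as known targets or partners of ATF4, and CHAC1 is among the 6. The shares of promoters with a match are therefore given as a description, and nothing is read from them. The MTHFD1L match began 129 bases before the RefSeq start, and those of SLC3A2 and SLC7A1 began after it. In GENCODE the MTHFD1L and SLC3A2 matches lie in a coding exon and the SLC7A1 match in an exon outside the coding sequence. The stricter form TGATGCAA, a special case of the core, was in 2 of 30 (6.67%) against 0.669% of all promoters, and the cyclic AMP response element TGACGTCA, a different sequence, was in 1 of 30 (3.33%) against 2.59%. STC2 held no match to the core in this window.

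CHAC1 and STC2 showed the pattern for which they were picked. CHAC1 (chromosome 15, 40952962 to 40956512) encodes a glutathione-degrading enzyme induced through ATF4. In HCT116 its TPM was 77.6 and 76.0 with shScr and 33.8 and 29.1 with shUHRF1. In UF1hypo it was 16.8 and 18.1 with shScr and 75.2 and 68.2 with shUHRF1. The knockdown libraries were thus lower in HCT116 and higher in UF1hypo, with no overlap in either line, and the knockdown libraries of UF1hypo lay just under the control libraries of HCT116. On the scale of log2(TPM + 1), used for all fold changes here, CHAC1 differed by -1.27 on knockdown in HCT116 and by 1.98 in UF1hypo.

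STC2 (chromosome 5, 173314723 to 173328447) encodes stanniocalcin 2, a secreted glycoprotein. It was at 74.8 and 73.6 TPM with shScr and 36.1 and 35.3 with shUHRF1 in HCT116, and at 35.0 and 33.0 with shScr and 73.1 and 61.0 with shUHRF1 in UF1hypo. These gave log2 differences of -1.04 in HCT116 and 0.96 in UF1hypo. HCT116 shUHRF1 and UF1hypo shScr formed the low pair of groups, and HCT116 shScr and UF1hypo shUHRF1 the high pair.

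**Figure D1:**
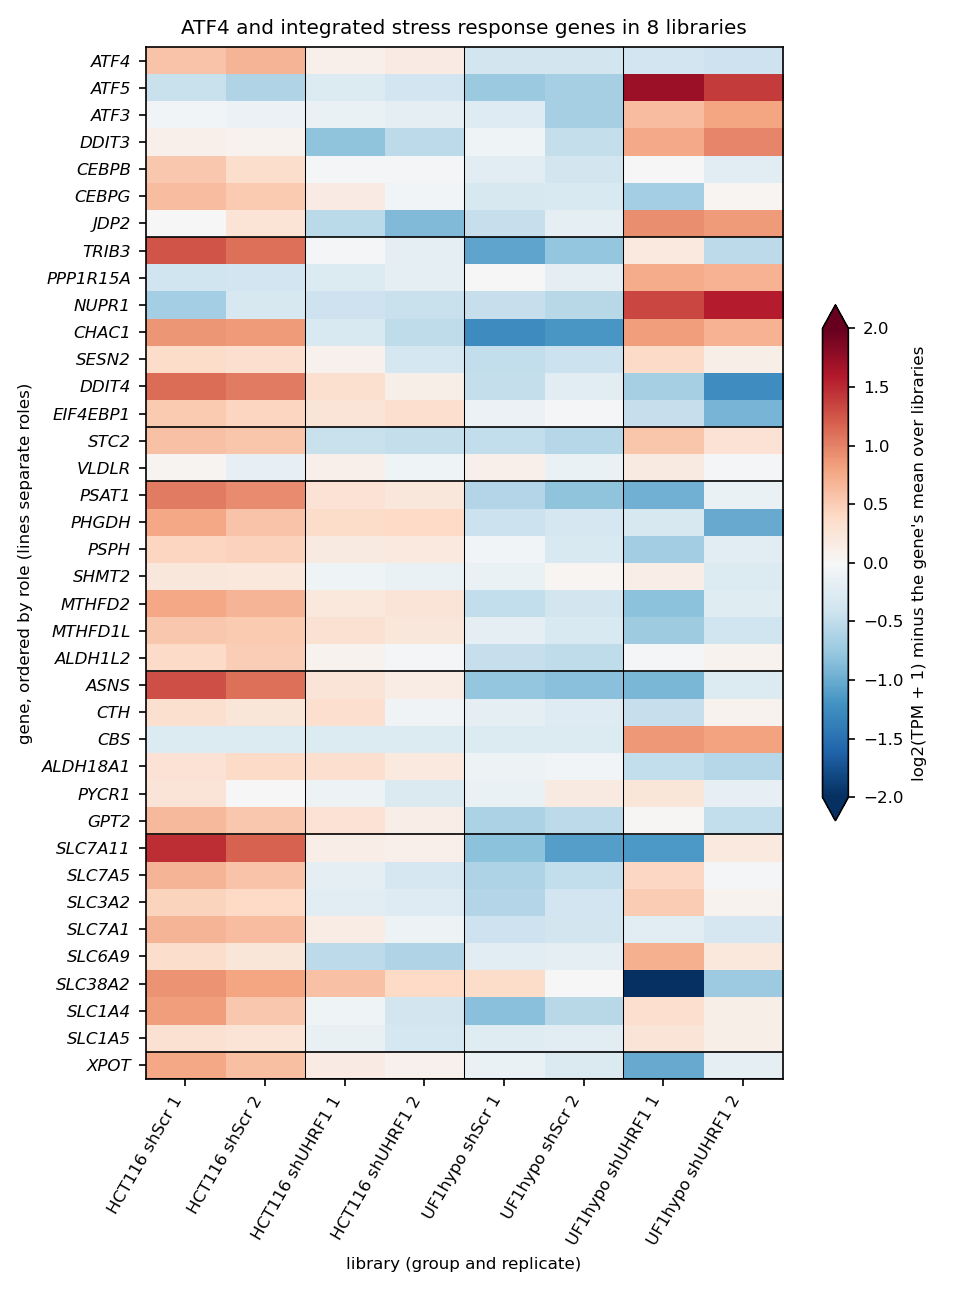
Expression of the 38 members (rows, ordered by role) in each of the 8 libraries (columns), as log2(TPM + 1) minus the mean of the gene over all libraries, with red above and blue below that mean. The HCT116 shScr columns are red for most members, whereas ATF5, ATF3, DDIT3, JDP2, NUPR1 and CBS are reddest in UF1hypo shUHRF1.

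Ranked by group mean, most members were highest in the parent line with the control hairpin. Of the 33 members with TPM above 1 in libraries of at least 2 groups, HCT116 shScr had the highest mean for 27, against 27.9% of 12823 genes, and UF1hypo shUHRF1 had it for the other 6, against 38.8% of genes. UF1hypo shScr had the lowest mean for 16 of the 33 (18.7% of genes), UF1hypo shUHRF1 for 10 (35.6%), HCT116 shUHRF1 for 6 (25.1%) and HCT116 shScr for 1 (20.7%), the phosphatase subunit gene PPP1R15A. NUPR1 and CBS passed 1 TPM in UF1hypo shUHRF1 alone, so that their order was fixed by the filter, and they are left out of this ranking. Since the choice of the members used the same libraries, the ranking is given as a description. VLDLR, a lipoprotein receptor, stayed between 0.112 and 0.398 TPM in all libraries and entered no test.

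Against this background the clone was compared with its parent line under the control hairpin. Of the 33 members tested, 11 were lower in UF1hypo shScr and 0 higher at an adjusted p below 0.05 and an absolute log2 fold change above 1, where 0.949% of all 12856 genes were called lower and 2.59% higher (limma, Benjamini-Hochberg over all genes). The median log2 fold change of the 33 was -0.82, against -0.05 for all genes. Both UF1hypo shScr libraries lay below both HCT116 shScr libraries for 31 of 33 members (37.2% of genes) and above them for 1 (29.1% of genes). These control libraries also entered the knockdown comparisons used in the choice of the members, so the counts are given as a description. The count of 11 leaned on all 4 libraries, since it was 3 without HCT116 shScr replicate 1, 2 without HCT116 shScr replicate 2, 3 without UF1hypo shScr replicate 1 and 5 without UF1hypo shScr replicate 2, and a group then held 1 library whose spread was taken from the others. ASNS and TRIB3 were called in each of these.

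Amino acid synthesis genes made up 5 of the 11. ASNS (chromosome 7, 97851677 to 97872542), which makes asparagine from aspartate and glutamine, was at 357 and 312 TPM in HCT116 shScr, 84.7 and 80.6 in UF1hypo shScr, 175 and 162 in HCT116 shUHRF1, and 76.7 and 119.7 in UF1hypo shUHRF1. It fell by 2.00 ± 0.21 (SE) on the log2 scale in UF1hypo shScr against HCT116 shScr (adjusted p = 0.00101). The UF1hypo libraries of either hairpin were all below the HCT116 libraries.

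PSAT1 and PHGDH catalyse steps of serine synthesis from a glycolytic intermediate. PSAT1 was at 359 and 334 TPM in HCT116 shScr, 115 and 98.5 in UF1hypo shScr, 212 and 204 in HCT116 shUHRF1, and 88.5 and 158 in UF1hypo shUHRF1, and it fell by 1.69 ± 0.24 in the clone under the control hairpin (adjusted p = 0.00546). PHGDH was at 275 and 241 TPM in HCT116 shScr, 120.1 and 127 in UF1hypo shScr, 208 and 212 in HCT116 shUHRF1, and 129 and 79.5 in UF1hypo shUHRF1, with a fall of 1.05 ± 0.22 (adjusted p = 0.0286). For both genes the 2 lines did not overlap under either hairpin.

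MTHFD2, a mitochondrial folate enzyme that uses the carbon units taken from serine, was at 296 and 279.9 TPM in HCT116 shScr, 123 and 135 in UF1hypo shScr, 201 and 207 in HCT116 shUHRF1, and 97.9 and 147 in UF1hypo shUHRF1. It fell by 1.15 ± 0.19 (adjusted p = 0.0112). GPT2, a mitochondrial alanine transaminase, was at 65.0 and 60.2 TPM in HCT116 shScr, 26.1 and 28.3 in UF1hypo shScr, 50.4 and 45.2 in HCT116 shUHRF1, and 41.8 and 29.0 in UF1hypo shUHRF1, and fell by 1.17 ± 0.20 (adjusted p = 0.0122). Of the other serine and folate genes, MTHFD1L and ALDH1L2 passed the adjusted p but not the fold threshold (log2 fold change -0.78 and -0.92), PSPH gave -0.63 and SHMT2 gave -0.26. ALDH1L2 lay between 0.522 and 2.03 TPM in all libraries, where the added 1 TPM shrinks a fold change. CTH, ALDH18A1 and PYCR1, of transsulfuration and proline synthesis, gave -0.51, -0.41 and -0.11 and did not pass.

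Transporters made up 4 of the 11. SLC7A11, the cystine carrier of the cystine-glutamate exchanger, was at 38.7 and 31.3 TPM in HCT116 shScr, 7.09 and 5.63 in UF1hypo shScr, 14.6 and 14.4 in HCT116 shUHRF1, and 5.45 and 15.3 in UF1hypo shUHRF1. Its fall of 2.29 ± 0.38 under the control hairpin was the largest of the module (adjusted p = 0.0103). The UF1hypo shUHRF1 pair lay far apart, on both sides of HCT116 shUHRF1.

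SLC7A5 and SLC3A2 form the heterodimer that imports large neutral amino acids. SLC7A5 was at 806 and 748 TPM in HCT116 shScr, 329.6 and 357 in UF1hypo shScr, 445 and 399 in HCT116 shUHRF1, and 668 and 493 in UF1hypo shUHRF1, and it fell by 1.18 ± 0.17 (adjusted p = 0.00525). SLC3A2 was at 633 and 609 TPM in HCT116 shScr, 308 and 353 in UF1hypo shScr, 401 and 387 in HCT116 shUHRF1, and 659.8 and 488 in UF1hypo shUHRF1, and passed the adjusted p (0.0168) at -0.91 ± 0.17. The 2 subunits thus followed the same order of groups.

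SLC1A4, an exchanger of small neutral amino acids, was at 12.5 and 10.04 TPM in HCT116 shScr, 3.25 and 4.15 in UF1hypo shScr, 6.11 and 4.83 in HCT116 shUHRF1, and 8.57 and 7.24 in UF1hypo shUHRF1. It fell by 1.39 ± 0.23 (adjusted p = 0.0102). SLC7A1, a carrier of cationic amino acids, was at 94.8 and 90.5 TPM in HCT116 shScr, 43.8 and 45.3 in UF1hypo shScr, 65.5 and 54.6 in HCT116 shUHRF1, and 49.9 and 46.5 in UF1hypo shUHRF1, and fell by 1.04 ± 0.16 (adjusted p = 0.00713). The remaining transporters SLC1A5, SLC6A9 and SLC38A2 gave -0.52, -0.50 and -0.66, none of them past the adjusted p.

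The last 2 of the 11 are negative regulators. TRIB3, a pseudokinase that restrains ATF4 and CHOP, was at 172 and 154 TPM in HCT116 shScr, 33.9 and 41.2 in UF1hypo shScr, 70.0 and 63.2 in HCT116 shUHRF1, and 82.0 and 49.2 in UF1hypo shUHRF1, and it fell by 2.09 ± 0.24 (adjusted p = 0.00173). DDIT4, an inhibitor of mTORC1 signalling, was at 457 and 436 TPM in HCT116 shScr, 151 and 179.9 in UF1hypo shScr, 264 and 228 in HCT116 shUHRF1, and 133 and 88.5 in UF1hypo shUHRF1, and it fell by 1.43 ± 0.20 (adjusted p = 0.00525). Among the other effectors SESN2 and EIF4EBP1 gave -0.82 and -0.56 and PPP1R15A, the phosphatase subunit that reverses eIF2 phosphorylation, gave 0.30, none past the adjusted p.

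None of the 7 transcription factors passed both thresholds in this limma comparison, and 3 had an unadjusted p below 0.05. ATF4 itself (chromosome 22, 39519695 to 39522683) was at 659.8 and 712 TPM in HCT116 shScr, 342 and 345 in UF1hypo shScr, 478 and 500.1 in HCT116 shUHRF1, and 339 and 334 in UF1hypo shUHRF1. Its log2 fold change of -0.99 ± 0.12 passed the adjusted p (0.00295) and was just under the fold threshold. The 4 UF1hypo libraries lay together, below every HCT116 library. CEBPB also passed the adjusted p, at -0.74 ± 0.16, and ATF5, ATF3, DDIT3, CEBPG and JDP2 lay between -0.88 and -0.18 without passing. For CHAC1 and STC2, which were not tested, the differences were -2.08 and -1.11.

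**Figure D2:**
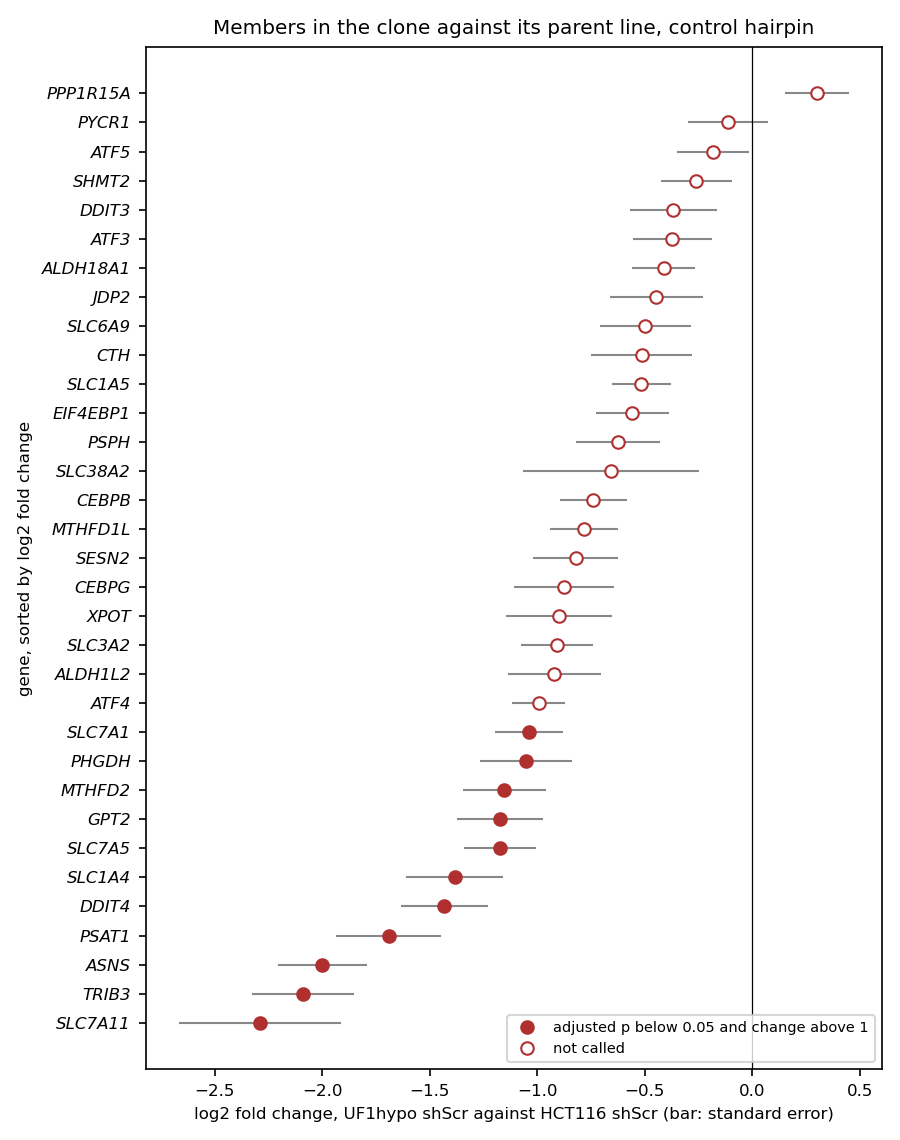
Log2 fold change of each tested member in UF1hypo shScr against HCT116 shScr (points, with the standard error from limma as bars), sorted by size, with filled points for the 11 called genes. All but PPP1R15A lie to the left of 0, from SLC7A11 at -2.29 to PYCR1 at -0.11.

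UHRF1 knockdown in HCT116 gave no call among the members. At an adjusted p below 0.05 and a log2 fold change above 1, 0 of 33 members were called by limma, where 0.0472% of 12704 genes were called higher and 0.0236% lower, while 17 of 33 had an unadjusted p below 0.05. The targeted gene UHRF1 was not called either, at -1.50 ± 0.22 (limma adjusted p = 0.0565), so a missing call does not show a lack of change. On knockdown in UF1hypo UHRF1 gave -0.84 ± 0.22 (limma adjusted p = 0.0406), under the fold threshold. The median log2 fold change was -0.49, against -0.03 for all genes. Both knockdown libraries lay below both control libraries for 29 members (29.3% of genes) and above them for 2 (20.1% of genes). Nothing is read from these counts, because the choice of the members used this comparison. The members farthest from 0 were TRIB3 at -1.28 ± 0.24 (adjusted p = 0.115), SLC7A11 at -1.21 ± 0.38 (adjusted p = 0.46) and ASNS at -0.98 ± 0.21 (adjusted p = 0.172). TRIB3 and SLC7A11, and no other member, were called when the 4 HCT116 libraries were fitted alone, when libraries were weighted or when GC content was removed.

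Knockdown in UF1hypo gave 7 calls among 35 members, 6 higher and 1 lower, where 7.39% of 13620 genes were called higher and 1.14% lower. NUPR1 and CBS were among the 6, and as members near or at 0 elsewhere that passed the filter only through the group in which they were high, their calls carry no weight. Without them and all other genes above 1 TPM in a single group, 5 of 33 members were called, 4 higher and 1 lower, against 4.77% and 1.21% of genes, with a median of 0.19 against 0.01. Over all 35, the knockdown libraries lay above the controls for 18 members (30.6% of genes) and below for 6 (18.3% of genes). This comparison was also used in the choice, so the counts are given as a description. The count was 4 without UF1hypo shScr replicate 2, 2 (ATF5 and NUPR1) with the 4 UF1hypo libraries fitted alone and 3 (ATF5, NUPR1 and SLC38A2) with library weights. The 4 left without UF1hypo shScr replicate 2 were ATF5, CBS, JDP2 and NUPR1. The count was 7 and 9 without the first and the second of the UF1hypo shUHRF1 libraries, and 6 with GC content removed.

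Transcription factors made up 4 of the 7. ATF5, a stress-induced relative of ATF4 that is also translated through upstream reading frames, was at 34.4 and 36.5 TPM in UF1hypo shScr, 193 and 155 in UF1hypo shUHRF1, 42.6 and 38.2 in HCT116 shScr, and 48.1 and 44.5 in HCT116 shUHRF1. It rose by 2.26 ± 0.17 in UF1hypo (adjusted p = 8.61e-05) and differed by 0.19 ± 0.17 in HCT116. The UF1hypo knockdown libraries lay far above all others, which were between 34.4 and 48.1 TPM.

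DDIT3 encodes CHOP, a factor linked to cell death under prolonged stress. It was at 22.7 and 17.2 TPM in UF1hypo shScr, 41.7 and 48.9 in UF1hypo shUHRF1, 26.0 and 25.6 in HCT116 shScr, and 13.4 and 16.5 in HCT116 shUHRF1, and rose by 1.15 ± 0.20 in UF1hypo (adjusted p = 0.00734), with -0.75 ± 0.20 in HCT116 (adjusted p = 0.338). ATF3, a repressor and feedback factor of the pathway, was at 31.3 and 23.5 TPM in UF1hypo shScr, 58.1 and 66.0 in UF1hypo shUHRF1, 36.1 and 34.8 in HCT116 shScr, and 34.4 and 32.8 in HCT116 shUHRF1, and rose by 1.16 ± 0.18 (adjusted p = 0.00436). JDP2, a dimerisation partner of AP-1 and ATF proteins, was at 7.88 and 9.80 TPM in UF1hypo shScr, 22.2 and 21.0 in UF1hypo shUHRF1, 11.1 and 13.7 in HCT116 shScr, and 7.33 and 5.62 in HCT116 shUHRF1, and rose by 1.21 ± 0.22 (adjusted p = 0.00832). In all 3 the knockdown libraries of UF1hypo were the highest of the series.

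For ATF4 itself the log2 fold change on knockdown in UF1hypo was -0.03 ± 0.12 (adjusted p = 0.898), at 342 and 345 against 339 and 334 TPM, and CEBPG and CEBPB, which partner ATF4, gave -0.01 ± 0.23 and 0.19 ± 0.15.

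NUPR1, a small chromatin-associated stress protein, was at 0.234 and 0.156 TPM in UF1hypo shScr, 3.30 and 4.05 in UF1hypo shUHRF1, and between 0.0603 and 0.358 in the HCT116 libraries. No test is given for it, because its entry into the test depended on the high group. CBS, the first enzyme of transsulfuration, was listed at 0 in the 6 other libraries and at 1.22 and 1.12 TPM in UF1hypo shUHRF1. No fold is given against groups at 0, and its near-identical copy CBSL was listed at 0 in all libraries except UF1hypo shUHRF1 replicate 1, at 0.174 TPM, so reads could have been split between the copies.

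The member called lower was SLC38A2, a sodium-coupled carrier of small neutral amino acids. It was at 528 and 411 TPM in UF1hypo shScr, 81.3 and 246 in UF1hypo shUHRF1, 764 and 707 in HCT116 shScr, and 618 and 543 in HCT116 shUHRF1. It fell by 1.71 ± 0.42 (adjusted p = 0.0308), with the UF1hypo shUHRF1 replicates far apart and both below all other libraries. The call was lost without UF1hypo shUHRF1 replicate 1, where the value was -0.92, without either UF1hypo shScr library, with no filter on low values and with the 4 libraries alone.

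Of the members that passed the adjusted p and not the fold threshold, the amino acid importers SLC7A5, SLC3A2 and SLC1A4 gave 0.74 ± 0.17, 0.78 ± 0.17 and 0.93 ± 0.23, and the stress effectors PPP1R15A and SESN2 gave 0.81 ± 0.14 and 0.71 ± 0.20. SESN2, an inhibitor of mTORC1 in leucine shortage, was at 21.5 and 22.4 TPM in UF1hypo shScr, 40.4 and 33.2 in UF1hypo shUHRF1, 39.8 and 39.2 in HCT116 shScr, and 32.5 and 23.8 in HCT116 shUHRF1. EIF4EBP1, a translation repressor, gave -0.62 ± 0.17. The 7 serine and folate enzymes had no call by limma and 1 unadjusted p below 0.05, with a median of -0.11. For PSAT1, PHGDH, MTHFD2, ASNS and SLC7A11 the pair of UF1hypo shUHRF1 libraries lay on both sides of the UF1hypo shScr values.

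**Figure D3:**
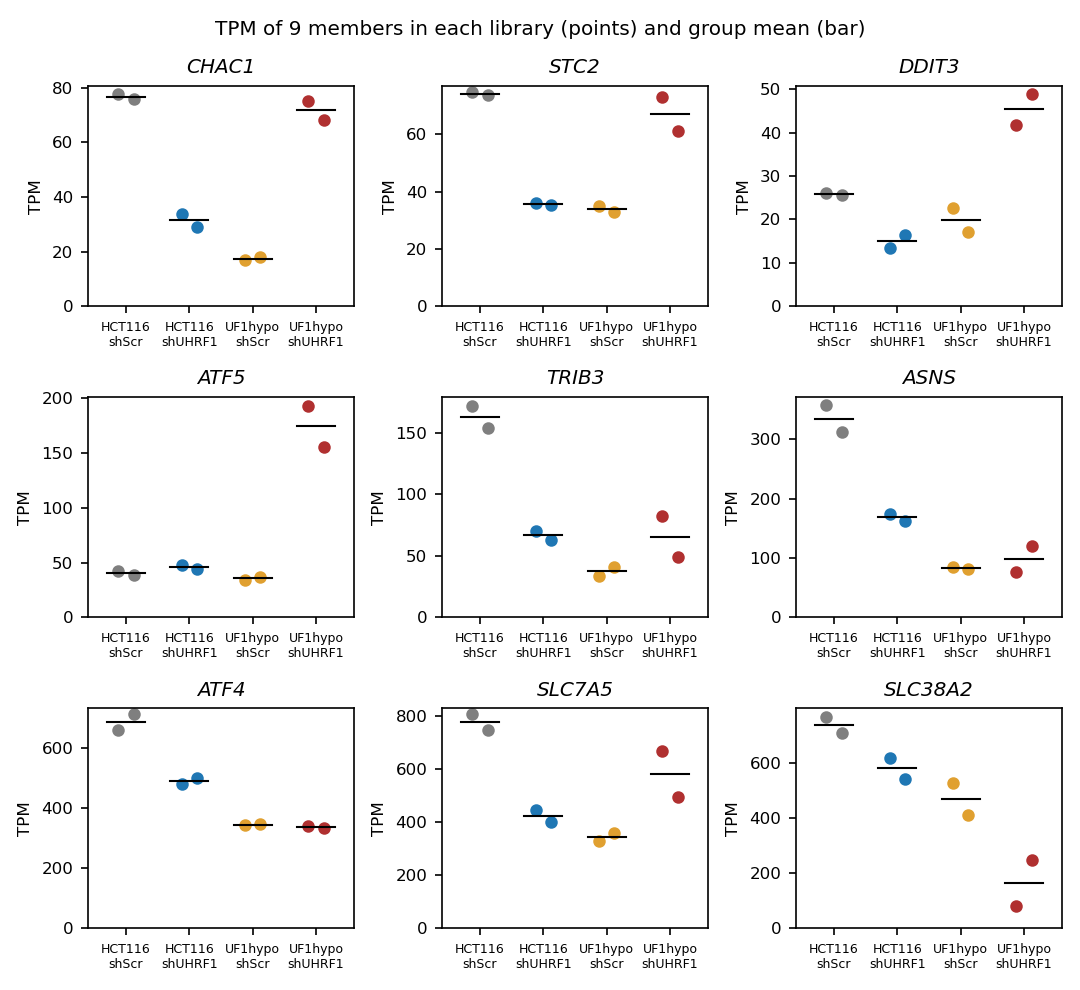
TPM of 9 members in each library (points) with the group mean (bar), on linear axes from 0. CHAC1 and STC2 are high in HCT116 shScr and UF1hypo shUHRF1, ATF5 is high in UF1hypo shUHRF1 alone, ATF4 is lower in all 4 UF1hypo libraries, and the UF1hypo shUHRF1 points of TRIB3, ASNS and SLC38A2 are wide apart.

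The knockdown effects were then compared between the lines by the interaction term, UF1hypo minus HCT116. It was called in 12 of 35 members, all with a higher value in UF1hypo, where 4.54% of 13781 genes were called higher and 0.559% lower. Without NUPR1, CBS and the other genes above 1 TPM in a single group, it was called in 10 of 33, against 2.92% of genes higher and 0.585% lower, with a median of 0.73 over these members and 0.04 over these genes. This is the contrast for which CHAC1 and STC2 were picked, so nothing is read from the count. Median-ratio scaling shifted the median of all genes by -0.11, and 10 members were then called.

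Called transcription factors were ATF5 (difference 2.07 ± 0.23, adjusted p = 0.00228), JDP2 (2.05 ± 0.31, adjusted p = 0.00863), DDIT3 (1.91 ± 0.29, adjusted p = 0.00863) and ATF3 (1.23 ± 0.26, adjusted p = 0.0323). Called effectors were TRIB3 (2.03 ± 0.34, adjusted p = 0.0128) and SESN2 (1.21 ± 0.28, adjusted p = 0.0458), of which SESN2 lost its call under 14 of 16 alternatives, with values from 0.91 to 1.42. Called transporters were SLC1A4 (1.85 ± 0.32, adjusted p = 0.0152), SLC7A5 (1.62 ± 0.24, adjusted p = 0.00785), SLC6A9 (1.52 ± 0.30, adjusted p = 0.0257) and SLC3A2 (1.43 ± 0.23, adjusted p = 0.0118). NUPR1 and CBS completed the 12. ASNS, at 1.196 ± 0.29, did not pass (adjusted p = 0.0566). The 7 serine and folate enzymes had no call, with differences between -0.04 and 0.92 and an unadjusted p below 0.05 for 2.

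SLC6A9, a glycine transporter, was at 17.0 and 15.7 TPM with shScr and 8.81 and 8.29 with shUHRF1 in HCT116, and at 11.1 and 11.4 with shScr and 22.0 and 15.4 with shUHRF1 in UF1hypo. It was among the 14 of 33 members tested in both lines whose knockdown libraries were both lower than the controls in HCT116 and both higher in UF1hypo, a pattern found in 6.86% of 12543 genes. The others were ATF3, DDIT3, CEBPB, JDP2, TRIB3, SESN2, ALDH1L2, GPT2, SLC7A5, SLC3A2, SLC7A1, SLC1A4 and SLC1A5. The choice of members used this pattern in CHAC1 and STC2, and neither of them is among the 14. Leaving them out does not make the count independent of the choice, so nothing is read from it.

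Over all alternatives no called difference changed sign, and the 10 without NUPR1 and CBS stayed between 0.91 (SESN2) and 2.39 (TRIB3). The count of 12 changed when any 1 library was left out, which left a group with 1 library whose spread was taken from the others. It was 2 to 3 without any 1 of the 4 HCT116 libraries, with ATF5 called each time, 4 and 6 without the first and the second UF1hypo shScr library, and 15 without either UF1hypo shUHRF1 library.

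**Figure D4:**
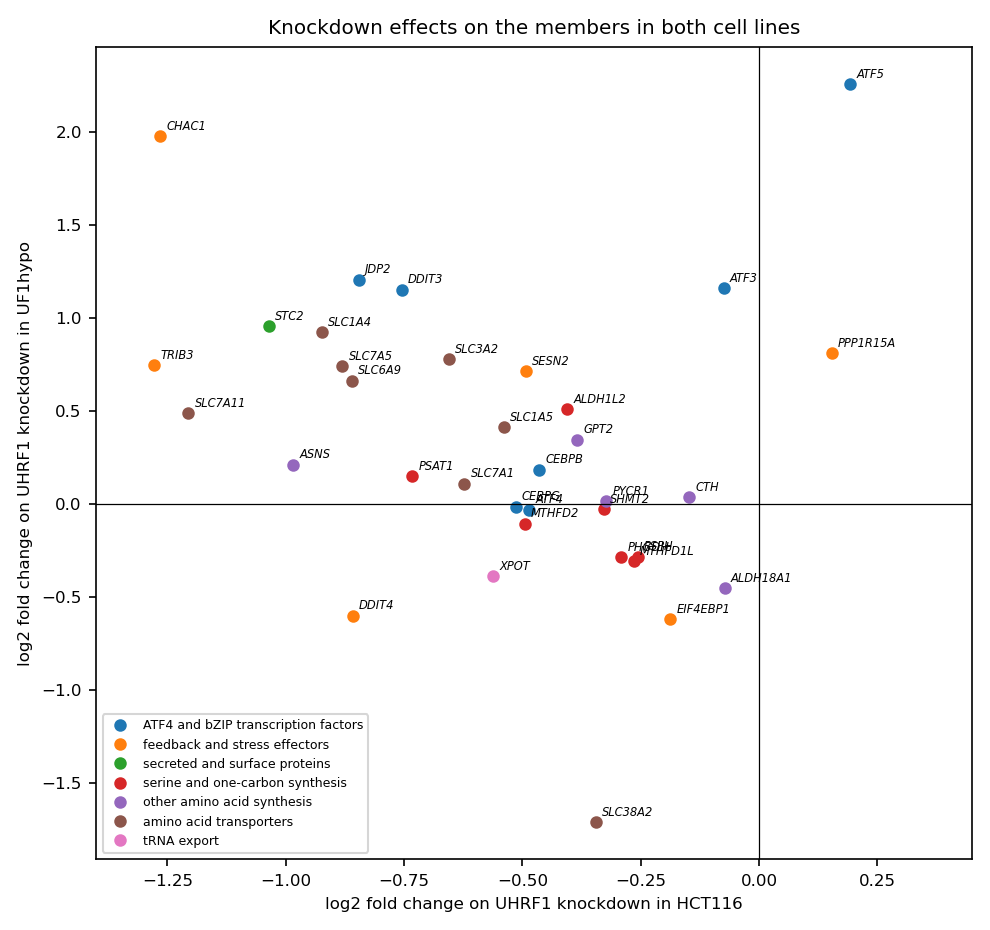
Log2 fold change on UHRF1 knockdown in HCT116 (horizontal) and UF1hypo (vertical) for the 33 members tested in both lines and for CHAC1 and STC2, coloured by role. The upper left part, lower in HCT116 and higher in UF1hypo, holds the transporters except SLC38A2, and the serine and folate enzymes lie between -0.31 and 0.51 on the vertical axis.

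Between the lines under shUHRF1, 9 of 35 members were called, 6 higher and 3 lower in UF1hypo, where 12.2% of 13650 genes were called higher and 3.92% lower. The count was 9 and 12 without the first and the second UF1hypo shUHRF1 library. These calls share libraries with the knockdown comparisons above and are not independent of them. NUPR1 and CBS were again among the 6, and without them and the other genes above 1 TPM in a single group 7 of 33 members were called, 4 higher and 3 lower, against 9.66% and 4.13% of genes. ATF5, JDP2 and DDIT3 were higher by 1.88 ± 0.17, 1.61 ± 0.22 and 1.54 ± 0.20. SLC6A9 was higher by 1.03 ± 0.21, a call lost under 9 of 13 alternatives, with 0.55 once GC content was removed and 0.78 without UF1hypo shUHRF1 replicate 1. SLC38A2 was lower, at -2.02 ± 0.42, and ranged from -1.23 without UF1hypo shUHRF1 replicate 1 to -2.82 without replicate 2, and its call was lost without either HCT116 shUHRF1 library. DDIT4 and PHGDH were lower, at -1.17 ± 0.20 and -1.05 ± 0.22, and without UF1hypo shUHRF1 replicate 2 both calls were lost, at -0.88 and -0.70. PHGDH also lost its call without either HCT116 shUHRF1 library. The median of these 33 members was -0.31, against 0.00 for the genes. The median of the 7 transcription factors was 0.86, that of the transporters 0.44 and that of the serine and folate enzymes -0.76. DDIT4 and PHGDH were thus called lower in the clone under both hairpins, and ASNS, PSAT1 and MTHFD2 passed the adjusted p but not the fold threshold here (-0.80, -0.81 and -0.76). XPOT, the exportin of tRNA, gave -0.90 under shScr and -0.73 under shUHRF1 and passed in neither. CHAC1 and STC2, not tested, differed by 1.17 and 0.89. In bulk RNA, fewer cells with a transcript and less of it per cell cannot be told apart.

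Genes upstream and beside the module were examined as lists. None of 18 genes for eIF2, its kinases, eIF2B and their regulators was called by limma on knockdown in either line (0 and 2 with an unadjusted p below 0.05 in HCT116 and UF1hypo). Between the lines under shUHRF1 1 of the 18 was called, where 12.2% of all genes were called higher and 3.92% lower. It was EIF2AK2, the kinase PKR, which responds to double-stranded RNA, at 1.59 ± 0.39 (16.8 and 15.0 TPM in HCT116, 29.99 and 81.8 in UF1hypo). Under shScr it was also higher in UF1hypo, at 1.40 ± 0.38, without passing (limma adjusted p = 0.0797). The shScr values were 17.5 and 15.9 TPM in HCT116 and 50.3 and 41.6 in UF1hypo. On knockdown in UF1hypo EIF2AK2 gave 0.11 ± 0.39. None of 20 genes of the XBP1 and ATF6 branches of the endoplasmic reticulum response, HSPA5 and DNAJB9 among them, was called by limma in any of the 5 contrasts, with an unadjusted p below 0.05 for 2 on knockdown in HCT116, 4 in UF1hypo, 4 for the difference, 4 between the lines under shScr and 9 under shUHRF1. In the last of these, 7 of the 20 passed the adjusted p below the fold threshold, all higher in UF1hypo, and the list had a median of 0.39 against 0.05 for all genes. Of 20 cytosolic tRNA synthetases, many of them ATF4 targets, 1 was called on knockdown in UF1hypo, LARS1 at -1.17 ± 0.24, where 1.14% of all genes were called lower. Under the control hairpin none of the 20 was called by limma in the clone against HCT116 and 11 had an unadjusted p below 0.05. Both UF1hypo shScr libraries lay below both HCT116 shScr libraries for 18 of the 20 (37.2% of all genes), with a median of -0.52 against -0.05.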

How the data were processed

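RNA was measured by poly(A)-selected, paired-end RNA-seq in 8 libraries, 2 for each of 4 groups taken from the labels. The authors used Fastp for trimming, HISAT2 2.0.4 for alignment (GRCh38) and StringTie 2.1.4 for abundance. The deposited tables hold, for each gene, TPM, FPKM and read coverage as the authors computed them, with TPM summing to 1000000 in each library. The count test of the study was not used here. Identifiers were matched to GENCODE v44 (60463 of 60605) and the 19942 protein-coding genes were kept.

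The members and all gene lists were chosen with earlier results of these data known. TPM was transformed to log2(TPM + 1), and limma 3.58.1 (R 4.3.3) was fitted to all 8 libraries with 4 group means, 4 residual degrees of freedom and a mean-variance trend. Genes above 1 TPM in at least 1 library of a contrast were tested in 5 contrasts, with Benjamini-Hochberg adjustment over all genes tested. A gene was called at an adjusted p below 0.05 and an absolute log2 fold change above 1. An exact permutation test of 2 against 2 libraries cannot go below 0.33 (two-sided). Counts are also given without genes above 1 TPM in a single group, with the fit and adjusted p unchanged, a choice made after seeing the data. Errors are standard errors of the fit. The fit was tested on simulated data.

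All 38 members are accounted for. Library values are given for CHAC1, STC2, ATF4, ASNS, DDIT3, TRIB3, ATF3 and each member called in any contrast, and other members are given by their fold changes. Called genes of the other lists are named, at most 4 a list. The alternatives were median-ratio scaling, quantile normalization, FPKM, a pseudocount of 0.1, no filter, the 4 libraries of a contrast alone, library weights, a replicate block, removal of each library's median within 10 bins of transcript GC content, no fold threshold and leaving out each library. Replicate numbers did not pair the libraries: the labels do not tie them to a shared culture or day, and the deviations of the numbered libraries correlated between groups at r = -0.402 to 0.055 over 13781 genes.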

Additional observations from a re-analysis of the deposited data

Results flagged for a closer look

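The knockdown effects of some members differed between UF1hypo and HCT116. The difference was tested by the interaction term of limma, and among members above 1 TPM in at least 2 groups it was past both thresholds for 10 of 33, against 2.92% of such genes higher and 0.585% lower. They were ATF5 (2.07), JDP2 (2.05), TRIB3 (2.03), DDIT3 (1.91), SLC1A4 (1.85), SLC7A5 (1.62), SLC6A9 (1.52), SLC3A2 (1.43), ATF3 (1.23) and SESN2 (1.21), each on the log2(TPM + 1) scale and UF1hypo minus HCT116. Because the choice of the members used this contrast, nothing is read from the count of 10. SESN2 lost its call under 14 of 16 alternatives, and without any 1 HCT116 library the calls over all members fell to between 2 and 3. SLC1A5, a glutamine carrier, passed the adjusted p with a difference of 0.95, below the fold threshold. CHAC1 (3.24) and STC2 (1.99), which were picked for this difference, moved one way in every HCT116 knockdown library and the other way in every UF1hypo knockdown library, and for them the difference was not tested. Groups of 2 libraries are too small to test any single library as far from the rest.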

How the results depend on the processing

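Over the 36 members, NUPR1 and CBS included, no call reversed under any alternative. Of the 39 calls of a member in a contrast, 9 were kept under every alternative and 30 were lost under at least 1. The calls of NUPR1 and CBS among the 39 carry no weight. Among the 9 these are NUPR1 on knockdown in UF1hypo and between the lines under shUHRF1. The rest of the 9 were ASNS and TRIB3 between the lines under shScr, DDIT3 and JDP2 between the lines under shUHRF1, and ATF5 in this contrast, on knockdown in UF1hypo and for the difference of effects. In HCT116 knockdown, 2 members were called with the 4 libraries alone, with library weights and with GC content removed, in place of 0. In UF1hypo knockdown, the count of 7 became 2 with the 4 libraries alone, 3 with library weights and 13 without the fold threshold. In UF1hypo shUHRF1 against HCT116 shUHRF1, the count of 9 became 21 without the fold threshold. With 1 library left out, the counts ranged from 0 to 0 for HCT116 knockdown, 4 to 9 for UF1hypo knockdown, 2 to 15 for the difference of effects, 2 to 5 for UF1hypo shScr against HCT116 shScr and 6 to 12 for UF1hypo shUHRF1 against HCT116 shUHRF1. With the replicate block the counts were 0, 7, 9, 11 and 9 in that order. The log2 fold changes of CHAC1 and STC2, which had no test, kept their sign, from -1.37 to -1.16 and 1.68 to 2.04 for CHAC1 in HCT116 and UF1hypo and from -1.05 to -0.99 and 0.83 to 1.08 for STC2. The cause of the changed counts was not tested, except that leaving out a library leaves a group with 1. Depth in reads is unknown for single genes, so no counting interval is given.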

Other observations

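Of 13 further ATF4 or CHOP targets tested on knockdown in UF1hypo 1 was called, where 7.39% of all genes were called higher and 1.14% lower. It was LAMP3, a lysosomal membrane protein, at 14.2 and 13.8 TPM with shScr against 52.9 and 87.0 with shUHRF1 (log2 fold change 2.20 ± 0.26, limma adjusted p = 0.00104), and it was already higher in UF1hypo shScr than in HCT116 shScr by 2.28 ± 0.25. Under the control hairpin 3 of 12 were called in the clone, where 2.59% of all genes were called higher and 0.949% lower. LAMP3 was called higher. PCK2, a mitochondrial enzyme of gluconeogenesis, and TUBE1, a tubulin, were lower in UF1hypo shScr, at -1.10 ± 0.21 and -1.61 ± 0.28. Under shUHRF1 3 of 13 were called, where 12.2% of all genes were called higher and 3.92% lower, LAMP3 at 4.31 ± 0.26, TUBE1 at -1.05 ± 0.28 and KLHL24, a substrate adaptor of an E3 ligase, at -1.35 ± 0.29. Of 14 NRF2 targets, HMOX1, which degrades haem, rose by 1.60 ± 0.15 on knockdown in UF1hypo (34.3 and 30.3 TPM against 101 and 98.7), and the export pump gene ABCC2 fell by 1.43 ± 0.21 (58.4 and 57.4 TPM against 16.9 and 25.7). Both differed between the lines in their knockdown effect, by 1.36 ± 0.22 and -2.20 ± 0.29. Of 9 further amino acid transporters tested under the control hairpin, SLC43A1 was lower in the clone at -1.51 ± 0.20 and SLC43A2 higher at 1.24 ± 0.23.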
